A study of Mus musculus with 4 samples.

Results

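The T cell receptor (TCR) complex and the first enzymes and adaptors behind it were followed in induced regulatory T (iTreg) cells cultured with or without ferrous sulfate. The 9 genes were chosen by name and by role: Cd3d, Cd3e, Cd3g and Cd247, which encode the CD3 signaling chains; Cd4, the co-receptor; Lck and Zap70, the kinases; and Lat and Lcp2, the adaptors. All 9 were present among 47729 gene rows, and all 9 passed the filter on low counts that left 13732 genes for testing. The rule names genes by function and holds no measured value, though it was written with earlier results of these data known.

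Naïve CD4 T cells of C57BL/6 mice (labelled spleen, while the general purification method also names lymph nodes) had been activated with anti-CD3 and anti-CD28 antibodies in medium with IL-2 at 100 U/mL and TGF-β at 5 ng/mL, and IFN-γ and IL-4 were each blocked with 5 µg/mL of antibody. FeSO4 (50 µM) was present in 1 group and PBS in the other (Mock), in both for 4 days, with 2 libraries per group. The strain, the antibodies and the cytokines were shared by both groups, and the activating antibody to CD3 (clone 2C11) binds the product of a member, Cd3e. The study's methods describe 2 pairs from 2 independent experiments, but no label ties a library to an experiment, and p-values measure the spread between these libraries only, and in bulk RNA fewer cells of a type cannot be told apart from less RNA per cell.

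A T cell recognizes antigen through the αβ chains of its receptor, which have almost no cytoplasmic part of their own. Signals pass instead through the CD3γ, CD3δ, CD3ε and CD3ζ chains, whose tyrosine motifs are phosphorylated by Lck, a Src family kinase brought close by CD4. ZAP-70 docks on these phosphorylated motifs and phosphorylates the scaffolds LAT and SLP-76 (the product of Lcp2), from which calcium, Ras and NF-κB signaling branch. TCR signals are required for the generation and the function of regulatory T cells.

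The libraries held 35183187 to 40859178 reads assigned to genes, of which the 9 members together took 0.367 to 0.401%. The 5 defining markers of CD4 T cells were all found, Cd3e, Cd4 and Trac with the values given further on. Foxp3, the lineage factor of regulatory T cells, stood at 23802 and 28997 counts (Mock) against 12869 and 17458 (FeSO4, log2 fold change -0.60, edgeR adjusted p = 0.000469), and Il2ra, the IL-2 receptor α chain, stood at 56613 and 66329 (Mock) against 50724 and 57383 counts (0.02, adjusted p = 0.843). Markers of NK, CD8 T and B cells, of which NK cells carry several members, were scarce. The 3 NK cell markers Ncr1, Klrb1c and Klra8 were at 0 in all 4 libraries, which allows up to 3 counts each, Cd8a and Cd8b1 summed to 341 to 408 counts, and 4 B cell markers to 88 to 137. The 8 myeloid and dendritic markers summed to 208 counts in Mock replicate 1, of which 164 were Lyz2, and to 13 to 40 in the other libraries. The mast cell list summed to 6547 and 7563 counts in Mock and 2904 and 3319 in FeSO4, nearly all of it Kit, while Cpa3 reached at most 4 counts and Mcpt4 was at 0. The gamma delta T cell list (3 of 4 genes found) summed to 1532 and 1552 counts in Mock and 1037 and 1059 in FeSO4, and the erythroid and platelet list to 866 to 1037 in Mock and 1223 to 1312 in FeSO4, mostly Hba-a1. The part of these lists in the results was not tested.

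Of the 4 CD3 chain genes 3 rose with FeSO4, while neither of the kinases behind them passed the test. Cd3g and Cd3d rose by 1.42-fold and 1.3-fold, Cd247 and Lcp2 rose by 1.14-fold each, and Cd3e, Cd4, Lck, Zap70 and Lat were not called. In edgeR's quasi-likelihood test with Benjamini-Hochberg adjustment over all genes, 4 of 9 members passed an adjusted p of 0.05 in the higher direction (FeSO4 over Mock) and 0 in the lower. The higher members numbered 2 (Cd3g and Cd3d) when any 1 library was left out and with upper quartile or library size scaling. Over all tested genes 10.6% were called higher and 8.89% lower (1455 and 1221 genes), a balance that turned to 939 higher and 1748 lower with library size scaling. The median log2 fold change (FeSO4 over Mock) of the members was 0.13, against -0.000455 for all tested genes. In 6 of 9 members both FeSO4 libraries lay above both Mock libraries, as they did in 30.1% of all tested genes.

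**Figure D1:**
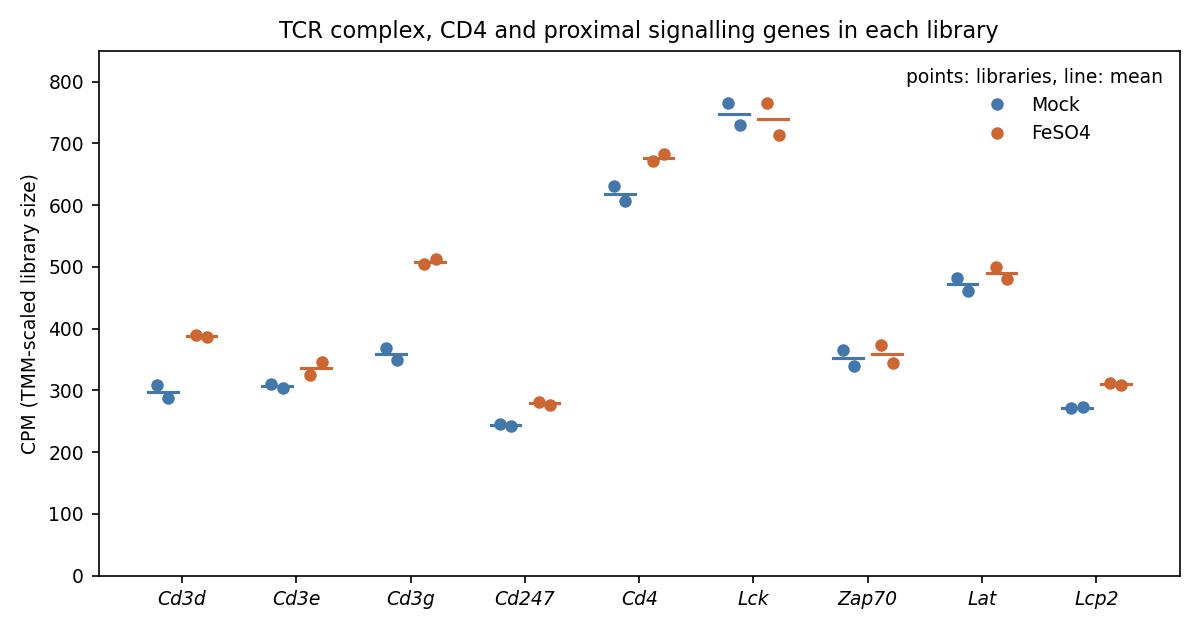
Level of each member in each library. The vertical axis is CPM on TMM-scaled library sizes, points are libraries (Mock blue, FeSO4 orange) and lines are group means; Cd3g and Cd3d show the widest gaps between groups, while the groups overlap for Lck, Zap70 and Lat.

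Cd3g encodes CD3γ, which pairs with CD3ε. Its level in CPM, the read count scaled by library size, was 368 and 349 in the Mock libraries and 505 and 512 in the FeSO4 libraries. Both FeSO4 libraries were above both Mock libraries, and the gap between groups was far wider than that within either. The log2 fold change was 0.50 (SE 0.06, 95% interval 0.38 to 0.63, edgeR adjusted p = 4.34e-05). Cd3g was also the 1 member that met the study's own threshold, an unadjusted p under 0.05 and a log2 fold change of 0.5 or more in size, at a value just past it, which 4.47% of all genes met in the higher direction.

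Cd3d encodes CD3δ, the other chain that pairs with CD3ε. It had 309 and 287 in Mock and 389 and 386 CPM with FeSO4. The groups did not overlap, and the FeSO4 libraries differed by less than the Mock libraries did. The log2 fold change was 0.38 (SE 0.06, 95% interval 0.25 to 0.51, edgeR adjusted p = 0.00069). The calls of Cd3g and Cd3d held under each of 13 alternatives, among them leaving out any 1 library, at log2 fold changes of 0.37 to 0.53 for Cd3g and 0.26 to 0.43 for Cd3d.

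Cd3e encodes CD3ε, the chain shared by both CD3 pairs. Its Mock libraries stood at 310 and 304 CPM, and its FeSO4 libraries at 325 and 346. Both FeSO4 libraries were above the Mock libraries, but by less than for its partners. The log2 fold change of 0.13 (SE 0.06, 95% interval -0.0028 to 0.26) did not pass the test (edgeR adjusted p = 0.166), and the interval does not exclude a small increase. The value was 0.064 with library size scaling and 0.086 without FeSO4 replicate 2.

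Cd247 (chr1:165779952-165871153, plus strand) encodes CD3ζ, the homodimer that holds most of the tyrosine motifs of the complex. It had 246 and 242 in Mock and 282 and 277 CPM with FeSO4. The groups did not overlap and the replicates lay close together. The log2 fold change was 0.19 (SE 0.06, 95% interval 0.06 to 0.32, edgeR adjusted p = 0.0357). The call was lost when any 1 of the 4 libraries was left out (adjusted p = 0.065 to 0.197). Exons of Cd247 overlap those of Pou2f1 on the opposite strand, whose log2 fold change was -0.29 (edgeR adjusted p = 0.0679), and without a stated strand setting reads of the overlap cannot be told apart. A predicted gene on its own strand, Gm16565, also overlaps it and had 3 to 29 counts.

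The receptor chains that bear the antigen-binding domains were tested as well. Their 3 constant region genes were all called higher in FeSO4, beside 10.6% of all tested genes. Only 1 of the 3 (Trbc2) was called with library size scaling (edgeR adjusted p = 0.192 for Trac and 0.0597 for Trbc1). The same held with an offset for exon length, added after seeing the data (adjusted p = 0.91 for Trac and 0.568 for Trbc1). Trbc2, a constant region of the β chain, had 390 and 381 in Mock and 531 and 528 CPM in FeSO4 (log2 fold change 0.46, edgeR adjusted p = 8.22e-05). Trbc1, the other β constant region, had 326 and 297 in Mock and 367 and 371 CPM in FeSO4 (0.24, adjusted p = 0.0146). Trac, the α constant region, had 526 and 480 in Mock and 565 and 579 CPM in FeSO4 (0.19, adjusted p = 0.0496). The groups did not overlap for any of them, as in 30.1% of all tested genes with FeSO4 higher. Trbc1 and Trbc2 are near-identical, so the split of reads between them is uncertain. The call of Trac was lost with the size factors of DESeq2 (adjusted p = 0.0503) and without Mock replicate 2 (0.253, log2 fold change 0.12), FeSO4 replicate 1 (0.0846) or FeSO4 replicate 2 (0.165), and that of Trbc1 without Mock replicate 2 (adjusted p = 0.0911) or FeSO4 replicate 2 (adjusted p = 0.0598).

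**Figure D2:**
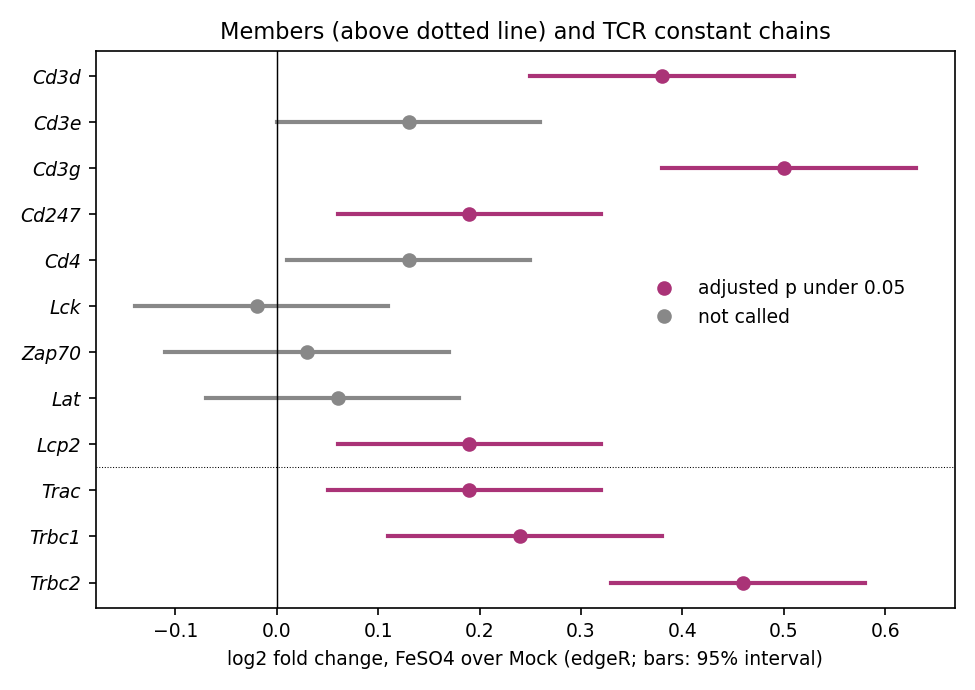
Log2 fold change (FeSO4 over Mock, horizontal axis) of the 9 members and, under the dotted line, of the 3 TCR constant chains. Points are edgeR estimates, bars are 95% intervals and colored points passed an adjusted p of 0.05; the intervals run from 0.38 to 0.63 for Cd3g and from -0.14 to 0.11 for Lck.

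Summed over the 4 CD3 chain genes, the level was 1233 and 1181 CPM in Mock and 1501 and 1520 in FeSO4. Because the shares of reads among the CD3 chains do not depend on how libraries are scaled, they were compared within each library. Cd3g made up 29.8 and 29.6% of the reads of the 4 chains in Mock and 33.7% in both FeSO4 libraries. Cd3e made up 25.1 and 25.7% in Mock and 21.7 and 22.8% in FeSO4. Cd3g thus took a larger share and Cd3e a smaller one in both FeSO4 libraries, and for Cd3g the 95% Clopper-Pearson interval was 33.3 to 34.1% in each FeSO4 library, against a highest Mock bound of 30.3%. These intervals cover counting error only. Cd3d made up 25.0 and 24.3% in Mock and 25.9 and 25.4% in FeSO4, and Cd247 lay at 20.0 and 20.5% in Mock and 18.8 and 18.2% in FeSO4. The sizes of these shares depend on gene length. Per kilobase of exon, Cd3g had mean shares of 40.9% in Mock and 45.1% in FeSO4, and Cd3e 26.0 and 22.2%. Cd3d stood at 27.5 and 27.8% on this scale, and Cd247 at 5.54 and 4.93%.

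**Figure D3:**
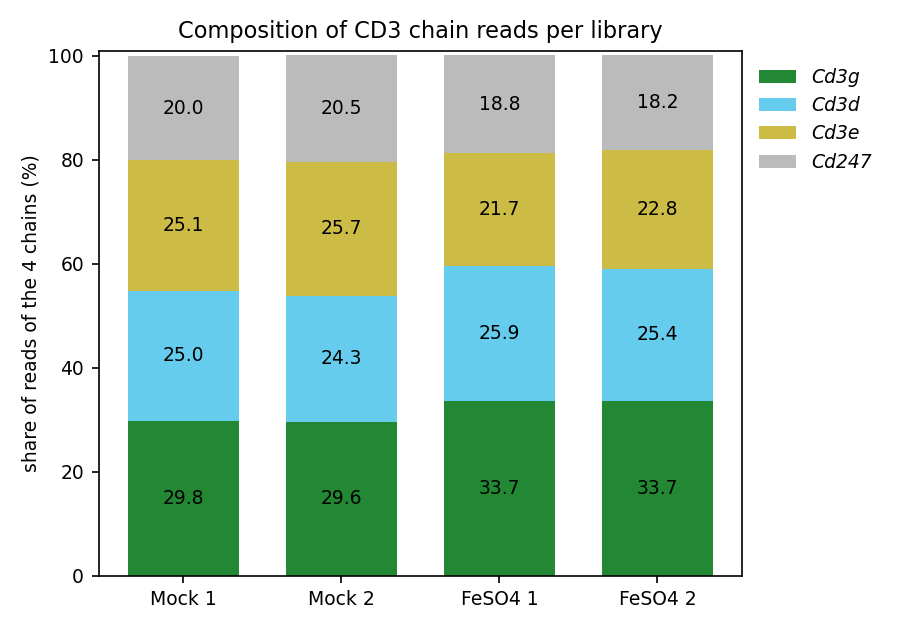
Share of reads (vertical axis, percent) that each CD3 chain gene took of the reads of the 4 chains, for each library. The Cd3g segment was 29.6 to 29.8% in Mock and 33.7% in FeSO4, and the Cd3e segment 25.1 to 25.7% in Mock and 21.7 to 22.8% in FeSO4.

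Expressed as ratios of counts, Cd3g over Cd3e was 1.19 and 1.15 in Mock and 1.55 and 1.48 in FeSO4, a difference of 0.38 on the log2 scale. Cd3d over Cd3e was 0.996 and 0.945 in Mock and 1.2 and 1.12 in FeSO4. Cd3g over Lck was 0.48 and 0.479 in Mock and 0.66 and 0.717 in FeSO4, a log2 difference of 0.52. For 8 of the 9 ratios computed the lower FeSO4 library exceeded the higher Mock library, also where the log2 difference was as small as 0.07 (Cd247 over Cd3e) or 0.04 (Zap70 over Lck). Cd4 over Cd3e was the exception, with 2.03 and 2.0 in Mock and 2.06 and 1.98 in FeSO4, so that the groups overlapped. The ratios were chosen by hand and share denominators, and several numerators (Cd3g, Cd3d, Cd247 and Lcp2) were genes already called higher. The share of ratios of other gene pairs that separate in this way was not computed, so the 8 of 9 is no result about the members. Single genes separated upward in 30.1% of all tested genes. The ratios are given as values only, and with 2 libraries against 2 an exact two-sided permutation test cannot give a p below 0.33.

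Cd3g and Cd3d, the members that rose most, lie beside each other. In the GRCm38.p6 (mm10) RefSeq annotation Cd3g spans chr9:44969572-44980431 on the minus strand and Cd3d spans chr9:44981769-44987052 on the plus strand, so that they are transcribed away from each other. Cd3e spans chr9:44998735-45009663 on the minus strand. The promoter windows used here end just before the start sites 44980431 (Cd3g), 44981786 (Cd3d) and 45009611 (Cd3e), which lie 1355 bases (Cd3g to Cd3d) and 27825 bases (Cd3d to Cd3e) apart. The sites of Cd3d and Cd3e lie inside the gene spans, so that 17 bases of the Cd3d window and 52 of the Cd3e window fall within their own gene. The 250 bases before the start site are shown for Cd3g and Cd3d, 5′ to 3′ on the strand of the gene, because these neighbors rose together. Capitals mark the RUNX motif TGNGGT or its reverse complement. The windows are chr9:44980432-44980681 for Cd3g, chr9:44981536-44981785 for Cd3d and chr9:45009612-45009861 for Cd3e.
Cd3g: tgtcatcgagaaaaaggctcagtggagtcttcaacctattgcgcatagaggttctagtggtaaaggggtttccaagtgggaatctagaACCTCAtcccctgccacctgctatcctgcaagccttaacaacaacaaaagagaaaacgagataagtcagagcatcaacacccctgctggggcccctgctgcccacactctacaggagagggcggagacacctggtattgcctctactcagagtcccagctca
Cd3d: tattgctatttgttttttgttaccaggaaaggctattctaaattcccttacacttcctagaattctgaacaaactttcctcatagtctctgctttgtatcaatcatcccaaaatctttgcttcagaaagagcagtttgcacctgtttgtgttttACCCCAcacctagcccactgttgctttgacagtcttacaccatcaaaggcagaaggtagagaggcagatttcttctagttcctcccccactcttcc

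Each of the 3 windows held 1 RUNX motif, as did 40.1% of 32851 RefSeq promoter windows of this length in at least 1 copy. The ETS core GGAA was found 2 times before Cd3g, 6 times before Cd3d and 5 times before Cd3e (93.4% of all windows hold it), and the E-box CANNTG 3 times, 1 time and 1 time (66.2%). The HIF core ACGTG was found 1 time before Cd3e and not before Cd3g or Cd3d (16.6% of windows). TATAAA (12.4%), CCAAT (33.8%) and TGACGTCA (1.5%) were found in none of the 3. Both strands were searched, and letters of these motifs may overlap. Windows were found for 8 of 9 members. Beyond these 3, the HIF core was found 1 time in the window of Cd247 and 2 times in that of Lat. It was in no window of Zap70, Lck or Lcp2. These matches describe letters only and do not mark sites of binding.

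Cd4 (chr6:124864693-124888247, minus strand) encodes the co-receptor that binds MHC class II and brings Lck to the complex. It had 631 and 606 in Mock and 671 and 683 CPM in FeSO4. Both FeSO4 libraries were above both Mock libraries. The log2 fold change of 0.13 (SE 0.06, 95% interval 0.01 to 0.25) did not pass the adjusted test (edgeR adjusted p = 0.134, unadjusted p = 0.0395), and with library size scaling the value was 0.066.

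Lck (chr4:129548344-129573641, minus strand), which phosphorylates the CD3 chains and ZAP-70, had 766 and 730 in Mock and 766 and 714 CPM with FeSO4. The groups overlapped. Its log2 fold change was -0.02 (SE 0.06, 95% interval -0.14 to 0.11, edgeR adjusted p = 0.892). Zap70 (chr1:36761798-36782821, plus strand), the kinase that binds phosphorylated CD3 chains, had 366 and 339 in Mock and 374 and 344 CPM in FeSO4, again with overlap (log2 fold change 0.03, 95% interval -0.11 to 0.17, adjusted p = 0.824). For both kinases the interval excludes a change as large as the 0.38 of Cd3d.

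Lat (chr7:126363827-126369705, minus strand) encodes the membrane scaffold that ZAP-70 phosphorylates. It had 482 and 461 in Mock and 500 and 480 CPM in FeSO4, and the groups overlapped. Its log2 fold change was 0.06 (SE 0.06, 95% interval -0.07 to 0.18, edgeR adjusted p = 0.575). Lcp2 (chr11:34046928-34092281, plus strand) encodes SLP-76, the cytosolic adaptor that joins LAT through GADS. It had 271 and 273 in Mock and 312 and 309 CPM with FeSO4. The groups did not overlap, and the log2 fold change was 0.19 (SE 0.06, 95% interval 0.06 to 0.32, edgeR adjusted p = 0.0351). As for Cd247, the call of Lcp2 was lost when any 1 of the 4 libraries was left out (adjusted p = 0.0692 to 0.175). With library size as the only scaling, under which the median of all genes was -0.0654, both fell to 0.13 and were not called (adjusted p = 0.148 each).

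Levels of different members were compared per kilobase of exon (GENCODE M1). In Mock, Lat was highest with 381 ± 12.0 CPM per kilobase (mean ± SD, n = 2), followed by Cd3g (335 ± 12.4), Lck (255 ± 8.91), Cd3d (225 ± 11.9) and Cd3e (214 ± 3.25). Cd3d and Cd3e did not differ beyond their spread, nor did Cd4 (153 ± 4.45) and Zap70 (151 ± 8.09). Lcp2 (61.0) and Cd247 (45.4) were lowest. The lengths matter for this order: with the longest annotated transcript in place of all exons, Cd247 was at 89.9 and Lcp2 at 74.5 CPM per kilobase, and Lck at 342. In FeSO4 the order changed at the top. Cd3g reached 472 and 479 CPM per kilobase and lay above Lat with 403 and 388, and with the longest transcripts the means were 497 for Cd3g and 395 for Lat. Cd3d (294 and 292) lay above Lck (261 and 244) per kilobase of all exons, but with the longest transcripts this order was reversed (means of 293 and 339).

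Further genes of TCR signaling, 86 in all and all tested, were read beside the members. Of these, 15 were higher and 20 were lower in FeSO4 in the edgeR test with Benjamini-Hochberg adjustment, 51 were not called and the median log2 fold change was -0.07. Over all tested genes the shares were 10.6% higher and 8.89% lower, and 15.8% were lower among genes of 4649 exon bases or more, to which 39 of these 86 belong. With library size scaling 9 were higher and 27 lower, and with upper quartile scaling 11 and 23. Each group is described by its counts and median, and no test compared the groups.

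**Figure D4:**
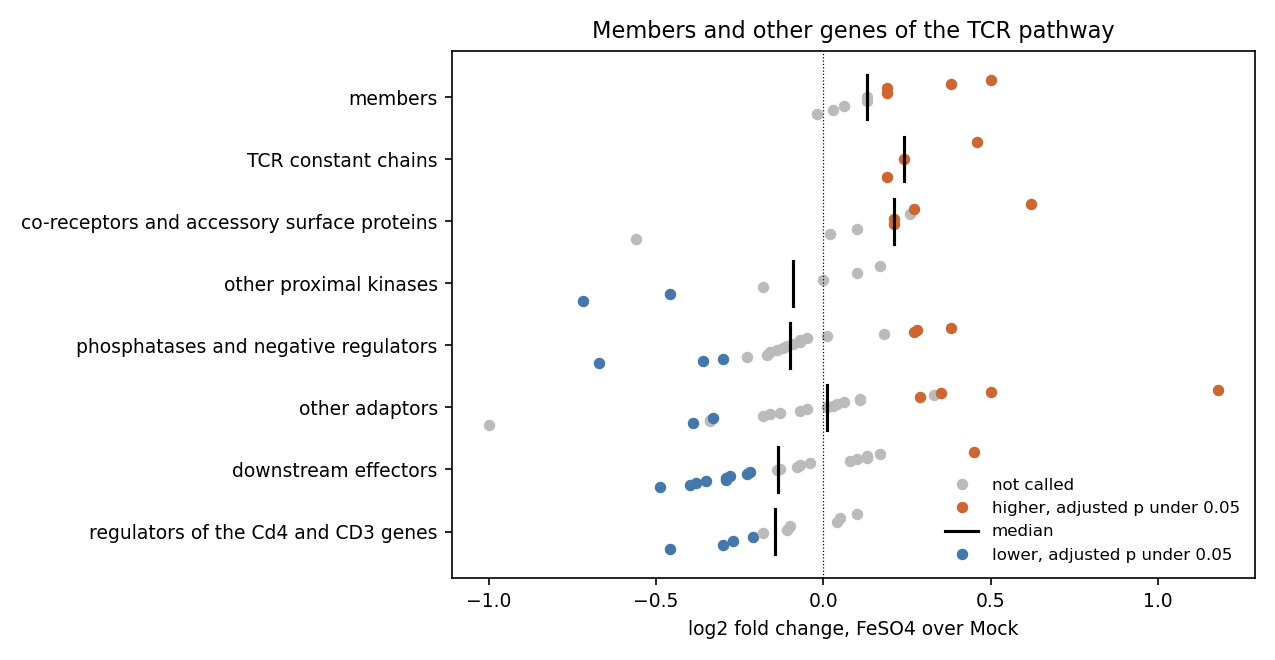
Log2 fold change (FeSO4 over Mock, horizontal axis) of the members and of 7 groups of other TCR pathway genes. Each point is a gene, orange if higher and blue if lower at an edgeR adjusted p under 0.05, gray if not called, and vertical bars are medians; the median was 0.24 for the TCR constant chains and -0.14 for the downstream effectors.

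Among 8 co-receptors and accessory surface proteins, 4 were higher and 0 lower, beside 10.6% and 8.89% over all genes. Their median log2 fold change was 0.21. With upper quartile scaling, library size scaling or the exon length offset 2 were higher. Cd2, the adhesion receptor that adds to TCR signals, rose most, from 505 and 526 CPM in Mock to 763 and 828 CPM in FeSO4 (0.62, edgeR adjusted p = 7.88e-06). Cd48, a ligand of CD2, rose by 0.27 on the log2 scale (adjusted p = 0.00975), Cd5, an inhibitory receptor, by 0.21 (adjusted p = 0.0308) and the tetraspanin gene Cd82 by 0.21 (adjusted p = 0.0388). The calls of Cd5 and Cd82 were lost without Mock replicate 2 (adjusted p = 0.179 and 0.2) or FeSO4 replicate 1 (0.112 and 0.255), that of Cd5 also without FeSO4 replicate 2 (0.0839), as was that of Cd48 (0.0843).

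Of the 6 other proximal kinases, 0 were higher and 2 lower, beside 10.6% and 8.89% over all genes. With a replicate block, as with the exon length offset, 1 of these kinases was higher and 3 were lower. Syk, the relative of ZAP-70, had 25.2 and 26.2 in Mock and 16.3 and 15.0 CPM in FeSO4 (log2 fold change -0.72, edgeR adjusted p = 0.000291). Txk, a Tec family kinase, fell from 55.4 and 63.0 CPM to 42.3 and 44.1 CPM (-0.46, adjusted p = 0.00216). Fyn, the other Src family kinase of T cells, had a log2 fold change of -0.18 at an adjusted p of 0.051, just short of the threshold, and was called lower under 8 of 13 alternatives (adjusted p = 0.0104 to 0.272 over all 13).

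Of 18 phosphatases and negative regulators, 3 were higher and 3 lower, with a median of -0.10, beside 10.6% higher and 8.89% lower over all genes. The split was 2 higher and 6 lower with library size scaling, and 3 and 5 with upper quartile scaling, as with a replicate block. Ptpn6, which encodes the phosphatase SHP-1, rose by 0.28 on the log2 scale (edgeR adjusted p = 0.00526), Sla, an adaptor that lowers TCR levels, by 0.38 (adjusted p = 0.00207) and the phosphatase gene Ptpn2 by 0.27 (adjusted p = 0.027). Ptprj, which encodes the receptor phosphatase CD148, had a log2 fold change of -0.67 (55.0 and 61.6 CPM in Mock, 34.4 and 38.7 in FeSO4, adjusted p = 0.000146). Ubash3b, a suppressor of TCR signaling, was at -0.36 (adjusted p = 0.00471) and the ubiquitin ligase gene Cbl at -0.30 (adjusted p = 0.0248). Without Mock replicate 2 the value of Cbl was -0.12 (adjusted p = 0.323), and without Mock replicate 1 it was -0.46. Its call was also lost without FeSO4 replicate 1 (adjusted p = 0.0602), and that of Ptpn2 without Mock replicate 1 (0.125) or FeSO4 replicate 1 (0.271).

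Of 21 other adaptors, 4 were higher and 2 lower (median 0.01), beside 10.6% higher and 8.89% lower over all genes. The lower count was near that lower share. Trat1 encodes TRIM, a transmembrane adaptor that associates with the TCR complex. It had 19.6 and 24.0 in Mock and 46.8 and 52.5 CPM in FeSO4. This was the widest relative gap among the 35 called pathway genes (log2 fold change 1.18, SE 0.11, edgeR adjusted p = 2.9e-06). Sh2d1a, the adaptor SAP of SLAM family receptors, rose by 0.50 (adjusted p = 0.00248), Grap by 0.35 (adjusted p = 0.00316) and Themis by 0.29 (adjusted p = 0.0422). The call of Themis was lost with upper quartile scaling (edgeR adjusted p = 0.0518) and with library size scaling (0.112). Grap2, which encodes GADS, the link between LAT and SLP-76, was at -0.33 (328 and 369 CPM in Mock, 282 and 274 in FeSO4, adjusted p = 0.00345). Nck2 was at -0.39 (adjusted p = 0.0267). Without Mock replicate 1 the calls of Themis (adjusted p = 0.338, log2 fold change 0.15) and Nck2 (adjusted p = 0.259, log2 fold change -0.25) were lost, as they were without FeSO4 replicate 2 (0.181 and 0.0652). Without Mock replicate 2 Themis was at 0.44.

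Downstream effectors were mostly lower where they were called, with 1 of 20 higher, 9 lower and a median of -0.14, beside 10.6% higher and 8.89% lower over all genes and 15.8% lower over the genes with the longest exons. Plcg1, the phospholipase recruited by LAT, fell from 374 and 379 CPM to 308 and 312 CPM (log2 fold change -0.28, edgeR adjusted p = 0.00422). Itpr2 (-0.49) and Itpr3 (-0.29), calcium channels of the endoplasmic reticulum, the calcium sensor gene Stim1 (-0.23), the calcineurin subunit gene Ppp3ca (-0.38) and the transcription factor genes Nfatc2 (-0.35) and Nfatc1 (-0.22) were lower as well, with adjusted p between 0.000729 for Itpr2 and 0.0352 for Nfatc1. Related genes of the list were not called, among them Itpr1, Stim2, Orai1, Orai2, Ppp3cb, Ppp3r1 and Nfatc3, whose log2 fold changes lay between -0.13 (Orai2) and 0.13 (Ppp3cb). Rasgrp1, which activates Ras, was at -0.40 (adjusted p = 0.000545) and Prkcq, the kinase PKCθ, at -0.29 (adjusted p = 0.00386). Malt1, the protease of the NF-κB branch, was the exception, with 151 and 157 in Mock and 215 and 204 CPM in FeSO4 (0.45, adjusted p = 0.000211). The call of Stim1 was lost when any 1 library was left out (adjusted p = 0.0711 to 0.202). That of Itpr3 was lost without FeSO4 replicate 1 (0.059) or 2 (0.0672), and that of Nfatc1 when any library except Mock replicate 1 was left out (0.113 to 0.268).

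Of 10 transcriptional regulators of the Cd4 and CD3 genes, 0 were higher and 4 lower (median -0.14). Over all genes 10.6% were higher and 8.89% lower, and 15.8% were lower over those with the longest exons. The count was 2 with the exon length offset or without FeSO4 replicate 2, and 1 without Mock replicate 2 or FeSO4 replicate 1. Ets1 had 884 and 940 in Mock and 698 and 786 CPM in FeSO4 (log2 fold change -0.30, edgeR adjusted p = 0.00533). Myb was at -0.46 (adjusted p = 0.0142), Runx1 at -0.27 (adjusted p = 0.022) and Bcl11b at -0.21 (adjusted p = 0.0256). The CD4 lineage factor gene Zbtb7b (adjusted p = 0.348) and Runx3 (adjusted p = 0.255) were not called. Without Mock replicate 2, Myb, Runx1 and Bcl11b were not called (adjusted p = 0.132, 0.0987 and 0.111), nor without FeSO4 replicate 1 (0.0939, 0.12 and 0.153), and without FeSO4 replicate 2 Runx1 and Bcl11b were not (0.114 and 0.109).

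Gene length moved with these differences. Over 12773 genes with an exon length, fold change and length had a Spearman rho of -0.21 across genes, given as a description since genes share the same 4 libraries. The median log2 fold change was 0.09 over 4258 genes of up to 2551 exon bases, 0.00 over 4259 genes of 2552 to 4648 bases and -0.07 over 4256 genes of 4649 bases or more. Of the 9 members 5 lay in the shortest class and 1 in the longest, while 15 of the 20 lower pathway genes lay in the longest, as did 39 of all 86 pathway genes. In that class 15.8% of all genes were called lower and 7.57% higher, against 4.16% lower and 14.5% higher in the shortest. In the fit with the offset for exon length the same 4 members were called: Cd3g at 0.37 (adjusted p = 0.000206), Cd3d at 0.26 (adjusted p = 0.00316), Cd247 at 0.23 (adjusted p = 0.01) and Lcp2 at 0.20 (adjusted p = 0.0149). Cd3e moved to 0.023 there, and Trac (-0.012), Trbc1 (0.051), Cd5, Cd48, Nfatc1, Runx1 and Bcl11b were no longer called. The other 28 of the 35 pathway calls held, 8 of the 9 lower downstream effectors among them, with Trbc2 at 0.26, Itpr2 at -0.32, Itpr3 at -0.19 and Nfatc2 at -0.23. A further 5 pathway genes were called there, 3 higher (among them Ppp3cb at 0.18 and the adaptor gene Sh3bp2 at 0.33) and 2 lower (Fyn at -0.17 and Dok2 at -0.20), so that 14 were higher and 19 lower.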

How the data were processed

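Libraries made from RNA of iTreg cells (4 in all, 2 Mock and 2 FeSO4, grouped by the titles in the labels) had been sequenced. The authors deposited raw read counts per Ensembl gene, without normalization. The methods name STAR and mm9, while the submitters' processing notes name Trim Galore 0.6.7, STAR 2.7.9a, featureCounts and mm10. Since 14930 of 47729 gene IDs are not in the mm9 annotation GENCODE M1, coordinates and sequences are from RefSeq on GRCm38.p6 (mm10), and exon lengths are from GENCODE M1. The strand setting and annotation version are not given in the sources used here. The table's 5 rows of unassigned reads were left out, of which those in no feature came to 4.36 to 6.03% of a library.

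Counts were tested in R 4.3.3 with edgeR 4.0.16 (filterByExpr, TMM, quasi-likelihood F test of FeSO4 against Mock, Benjamini-Hochberg adjustment over 13732 genes). The SE is the absolute log2 fold change over the square root of F, and CPM uses TMM-scaled library sizes. The biological coefficient of variation was 8.24%, and replicates differed by more than sampling noise (chi-square per degree of freedom 11.3 in Mock and 9.02 in FeSO4). Intervals of shares are Clopper-Pearson intervals and, like the limit of 3 counts for a count of 0, cover counting error only. The steps were tested on simulated data. Of genes changed by 0.5 on the log2 scale 57.7% were called, of those changed by 1 82%, and of unchanged genes 0.159%. Smaller changes were not simulated. Alternatives were DESeq2 1.42.0, limma-voom (limma 3.58.1), changes of scaling or of the low-count filter, a replicate block, leaving out single libraries, and an offset for exon length. The members, the pathway lists and the markers were chosen with earlier results of these data known. All members are named, and of each pathway group the genes past an adjusted p of 0.05, otherwise up to 4 genes of smallest p. Fyn, Dok2, Sh3bp2, Zbtb7b, Runx3 and the uncalled Itpr1, Stim2, Orai1, Orai2, Ppp3cb, Ppp3r1 and Nfatc3 were named outside this rule, after their values were seen. Syk, Tespa1, Trgc1, Trgc2 and Adgre1 were matched by synonym.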

Additional observations from a re-analysis of the deposited data

How the results depend on the processing

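Cd3g and Cd3d stayed called under 13 of 13 alternatives. Cd247 and Lcp2 were not called with upper quartile scaling (0.17 each, adjusted p = 0.0565 and 0.0551) or library size only (0.13 each), nor with any 1 library left out (log2 fold changes of 0.18 to 0.21 for Cd247 and 0.18 to 0.2 for Lcp2). The count of higher members was therefore 2 with upper quartile scaling, 2 with library size only and 2 without any 1 library, and it was 1 at the study's threshold. Values near 0 changed sign. With a library left out Lck ranged from -0.063 to 0.037 and Zap70 from -0.03 to 0.089. With library size only Zap70 was at -0.038 and Lat at -0.01. With the exon length offset Zap70 was at -0.025, Lat at -0.067 and Trac at -0.012. The cause was not tested.

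The other called pathway genes lost with a scaling were Cd5, Cd82, Themis and Trac (upper quartile), these and Trbc1 and Ptpn2 (library size only) and Trac (DESeq2 size factors), and Nfatc1 was lost without a count filter. With library size only, 9 of the other pathway genes and 939 of all genes were higher, and 27 and 1748 were lower. With a library left out, other pathway genes called lower numbered 13 to 21, all genes called higher 927 to 1159 and all genes called lower 799 to 1030. Without FeSO4 replicate 1 these were lowest (13, 927 and 799). A replicate block left the members' calls at 4 higher and 0 lower, called 16 other pathway genes higher and 24 lower (1 and 3 of the other proximal kinases, 3 and 5 of the phosphatases and negative regulators), and gave 1743 genes higher and 1467 lower. The deviations of same-numbered libraries correlated at r = 0.0293 across tested genes and 0.22 across 8522 genes of at least 10 CPM, and the methods' 2 pairs are tied to no number in the labels, so the numbers were not read as pairs.

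Each group had 2 libraries, so an SD rests on 1 difference and an outlying library cannot be identified. RNA levels do not give receptor levels at the cell surface.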
